A study of Mus musculus with 2 samples.

Results

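The genes described here encode 5 ligands of the epidermal growth factor (EGF) family (Hbegf, Areg, Ereg, Btc and Tgfa), 3 ErbB receptors (Egfr, Erbb2 and Erbb3) and 2 inhibitors of those receptors (Errfi1 and Lrig1). The 10 genes were chosen by name. Their N6-methyladenosine (m6A) peaks were taken as every peak whose summit lay inside the gene's RefSeq span on the mouse build mm10, which gave 11 of the 38366 peaks in the list. The tissue was the whole uterus of wild-type mice of strain C57BL/6. The assay was methylated RNA immunoprecipitation sequencing, which sequences RNA fragments pulled down with an anti-m6A antibody and compares them with RNA taken without antibody, the input. There was 1 m6A library, described as equal parts of uterus of gestation day 4 and gestation day 8. There was 1 input library, whose labels mention neither days nor pooling. The labels give no age and no number of animals, and both libraries carry the same strain and tissue labels. Names in the deposited list mention day 8 but not day 4, so the makeup of the immunoprecipitated sample rests on its label, and the 2 days cannot be told apart in a pool. With 1 library per group there was no replicate and no test between groups, and every value describes this pair of libraries.

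EGF family ligands are made as membrane-anchored precursors, are released by shedding proteases and bind ErbB receptors, which then pair and phosphorylate each other to start MAP kinase and PI3 kinase signalling. EGFR binds most EGF-like ligands directly, ERBB2 has no known ligand and serves as the preferred partner, and ERBB3 binds neuregulins but has little kinase activity of its own. In the mouse uterus, HB-EGF appears in the luminal epithelium next to the blastocyst before attachment, and amphiregulin is known as a progesterone-responsive epithelial signal. The mark m6A is placed on adenosines within mRNA, often near the stop codon and in the last exon, and affects how long a transcript lasts and how it is translated.

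Peaks were found in 7 of the 10 genes. All 3 receptors and both inhibitors carried at least 1 peak, whereas of the 5 ligands only Hbegf and Tgfa did, and Areg, Ereg and Btc had none. Over the whole annotation 55.7% of protein-coding genes (12131 of 21783) carried a peak by the same rule, so the 7 of 10 stands on a background in which a peak is common. Fold enrichment is the authors' deposited ratio at the summit, which matches the immunoprecipitated fragments plus 1 over the local background plus 1. It therefore lies below the plain ratio of the 2 values, and by more where the background is small. By this measure it ran from 3.27 to 13.1 over the 11 peaks, with a median of 6.16. The median over all 38366 peaks was also 6.16, with quartiles of 4.62 and 8.32, and 6 of the 11 peaks lay above it. Erbb2 and Hbegf were the 2 genes of the 10 with a peak of at least 10-fold, a level that 17.5% of protein-coding genes reached.

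**Figure D1:**
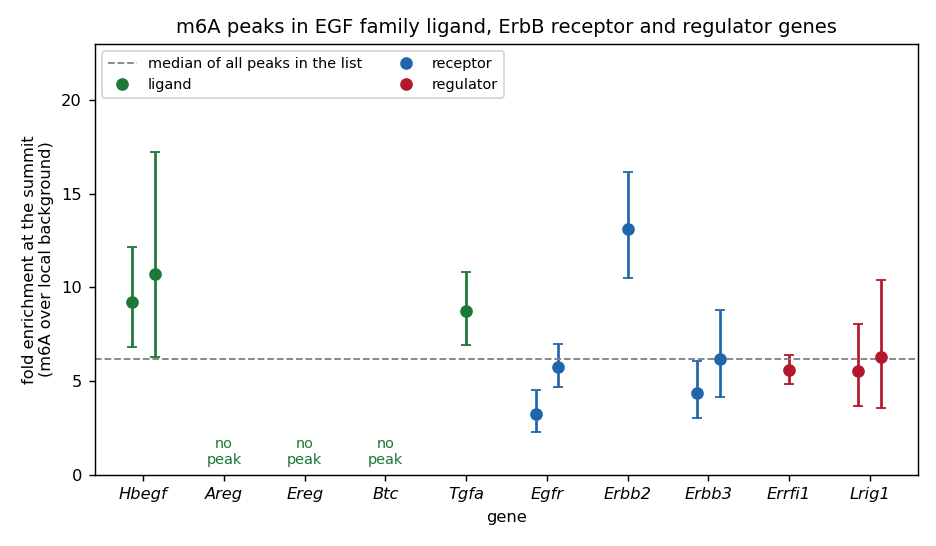
Fold enrichment at the summit (vertical axis, ratio) of each of the 11 peaks by gene, in green for ligands, blue for receptors and red for inhibitors. Bars are exact 95% Poisson intervals on the immunoprecipitated fragments and cover counting error only; the dashed line is the median of all peaks, 6.16. Erbb2 stands highest at 13.1, and Areg, Ereg and Btc have no peak.

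Among the ligands, Hbegf held 2 peaks. Hbegf encodes heparin-binding EGF-like growth factor (NCBI Gene 15200, mm10 chromosome 18, 36504927 to 36515805, a span of 10.9 kb). The first peak spanned 36505836 to 36506385, with its summit 1098 bases inside the lower-coordinate end of the span. It had 48 immunoprecipitated fragments at the summit over a local background of 4.32 scaled fragments, which gave 9.21-fold enrichment (95% interval 6.84 to 12.1). The second peak, at 36512680 to 36512891, lay in the interior of the gene, 3000 bases from the higher-coordinate end. Its 10.7-fold enrichment was nominally higher but rested on 15 fragments over a background of 0.494, close to the lowest background in the list, 0.462. Its interval of 6.29 to 17.2 contained the whole interval of the first peak. With nothing added to either term, the plain ratio of fragments to background was 30.4 (17.0 to 50.1) at the second peak and 11.1 (8.19 to 14.7) at the first, and these intervals did not overlap. The second Hbegf peak was thus the higher on both scales, but whether the intervals were apart depends on the added fragment. The second peak also rests on a background near the floor of the list.

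Tgfa, which encodes transforming growth factor alpha (NCBI Gene 21802, chromosome 6, 86195038 to 86275744, plus strand), held 1 peak. It spanned 86271882 to 86272691, with the summit 77121 bases from the gene's start and 3585 bases before its 3′ end. The summit was covered by 80 fragments over a background of 8.28, an enrichment of 8.73-fold (6.95 to 10.8). The deposited folds of Tgfa and of both Hbegf peaks lay within each other's counting intervals, whereas by the plain ratio Tgfa, at 9.67 (7.67 to 12.03), lay below the second Hbegf peak. The 3 ligand peaks were all above the median of the list, exceeding 78.1% to 88.0% of its peaks.

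No peak was listed in Areg (amphiregulin, NCBI Gene 11839, chromosome 5, 91139599 to 91148432), Ereg (epiregulin, NCBI Gene 13874, 91074617 to 91093649) or Btc (betacellulin, NCBI Gene 12223, 91357261 to 91402994). The 3 genes are neighbours on chromosome 5, in a cluster that also holds Epgn, the gene of the EGFR ligand epigen. No summit fell anywhere in the 375 kb from the start of Epgn to the end of Btc. The nearest summits were 34507 bases below the cluster, in Mthfd2l, at 5.47-fold, and 114776 bases above it, in Parm1, at 17.0-fold. Between these 2 summits lay 10 annotated genes in full, of which the protein-coding ones were the 4 ligands. Parts of Mthfd2l and Parm1, in which the summits fell, lay there too. The stretch measured 525 kb. Over the whole list the median distance between adjacent summits was 10.6 kb, and 97.4% of distances were shorter than this one. That share counts each distance once, whatever its length, so it does not say how much of the genome lies in stretches this long. The cluster was picked out after these values were seen, and the distances are a description with no test. Without expression values, lack of methylation, lack of the transcript and thin coverage cannot be told apart in these 3 genes.

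**Figure D2:**
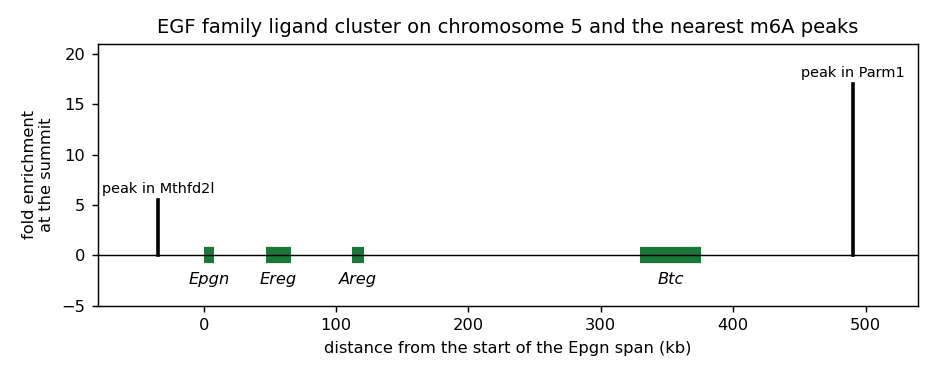
Map of the ligand cluster on chromosome 5. The horizontal axis is the distance in kb from the start of the Epgn span, green blocks are the gene spans to scale, and vertical lines are the 2 nearest peaks, their height being the fold enrichment at the summit. No peak lies within the 375 kb of the cluster, and the flanking peaks stand 34507 bases below and 114776 bases above it.

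The receptors held 5 peaks, among them the one with the highest deposited fold of all 11. Erbb2 encodes the ligand-less partner of the other ErbB receptors (NCBI Gene 13866, chromosome 11, 98412484 to 98437716, plus strand). Its single peak spanned 98435867 to 98437203, with the summit 971 bases before the 3′ end of the gene. The summit had 85 fragments over a background of 5.56 and a deposited fold of 13.1 (10.5 to 16.2). Its plain ratio was 15.3 (12.2 to 18.9), below that of the second Hbegf peak, 30.4, with overlapping intervals. By fold it ranked 2282 among 38366 peaks, above 94.1% of them. Among protein-coding genes with a peak, the highest fold of Erbb2 exceeded 85.8% of genes.

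Egfr, the receptor of HB-EGF, amphiregulin and transforming growth factor alpha (NCBI Gene 13649, chromosome 11, 16752203 to 16913907, plus strand), held a peak near each end of its 162 kb span. The upstream peak, at 16756403 to 16756886, had its summit 4254 bases from the start, with 35 fragments over a background of 10.005 and an enrichment of 3.27-fold (2.31 to 4.51). It was the weakest of the 11 and exceeded only 7.25% of all peaks. The downstream peak, at 16911376 to 16912653, had its summit 1591 bases before the 3′ end, with 100 fragments over a background of 16.6 and an enrichment of 5.75-fold (4.69 to 6.99). The intervals of the 2 Egfr peaks did not overlap. The interval of the downstream Egfr peak also lay wholly below that of Erbb2. The lncRNA genes Gm39584 and Egfros lie inside the Egfr span, and neither Egfr summit fell in them.

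Erbb3, the kinase-impaired neuregulin receptor (NCBI Gene 13867, chromosome 10, 128567523 to 128589635), held 2 peaks, both close to the lower-coordinate end of its 22.1 kb span. The outer one, at 128567728 to 128567995, had its summit 321 bases inside the lower-coordinate end, with 33 fragments over a background of 6.79 and 4.36-fold enrichment (3.04 to 6.07). The inner one, at 128569674 to 128570011, had its summit 2359 bases inside that end, with 28 fragments over 3.71 and 6.16-fold enrichment (4.17 to 8.81). These intervals overlapped, so the 2 Erbb3 peaks could not be ranked. Both peaks of Erbb3 lay wholly below the interval of Erbb2.

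The inhibitors of the receptors held 3 peaks. Errfi1 encodes MIG6, a cytoplasmic protein that binds the kinase domain of EGFR and blocks it, and is known as a progesterone-responsive gene in the mouse uterus (NCBI Gene 74155, chromosome 4, 150853796 to 150868889, plus strand). Its single peak was 2114 bases wide, from 150866218 to 150868331, wider than 98.5% of all peaks and covering 14.0% of the gene span. The summit lay 2239 bases before the 3′ end. It had 208 fragments, the most of the 11 peaks, over a background of 36.4, also the highest of them. Enrichment was 5.58-fold (4.85 to 6.39), above 42.0% of all peaks, while the −log10 q-value of 80.6 exceeded that of 98.4% of peaks. Errfi1 stood first of the 7 peak-carrying genes by −log10 q and last by highest fold. Erbb2, at 64.6, came second by −log10 q. The counting interval of Errfi1 was the narrowest of the set relative to its fold, and it lay wholly below those of Erbb2, Tgfa and the first Hbegf peak.

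Lrig1 encodes a leucine-rich repeat membrane protein that promotes removal of ErbB receptors from the cell surface (NCBI Gene 16206, chromosome 6, 94604529 to 94700298, minus strand). Both of its peaks lay close to the 3′ end of the 95.8 kb span. The one nearer the 3′ end, at 94605541 to 94606446, had its summit 1076 bases before that end, with 25 fragments over a background of 3.71 and 5.53-fold enrichment (3.65 to 8.06). The other, at 94608742 to 94609037, had its summit 4361 bases before the 3′ end. It reached 6.26-fold (3.54 to 10.4) from 13 fragments over 1.24, the fewest fragments of the 11 peaks, and the intervals of the 2 Lrig1 peaks overlapped.

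The 906-base peak of Lrig1 contained the whole of Mir7041, an annotated microRNA hairpin on the same strand (chr6:94606364-94606415), 759 bases from the summit. Its sequence, from RefSeq on GRCm38.p6, is shown because it was the only stretch of the 11 peaks whose letters were in the tables used. Capitals mark the words of the form A, G or U, then A or G, then A, C, and last A, C or U, the usual context of m6A, searched on this strand only.

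Mir7041 hairpin: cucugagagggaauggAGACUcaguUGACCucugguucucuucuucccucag

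The hairpin held 2 such words, AGACU and UGACC. Of all 1005 mouse hairpins in the same table, 74.4% held at least 1, so their presence is common and marks no site. Whether the fragments under this peak come from the hairpin or from the host transcript was not tested.

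**Figure D3:**
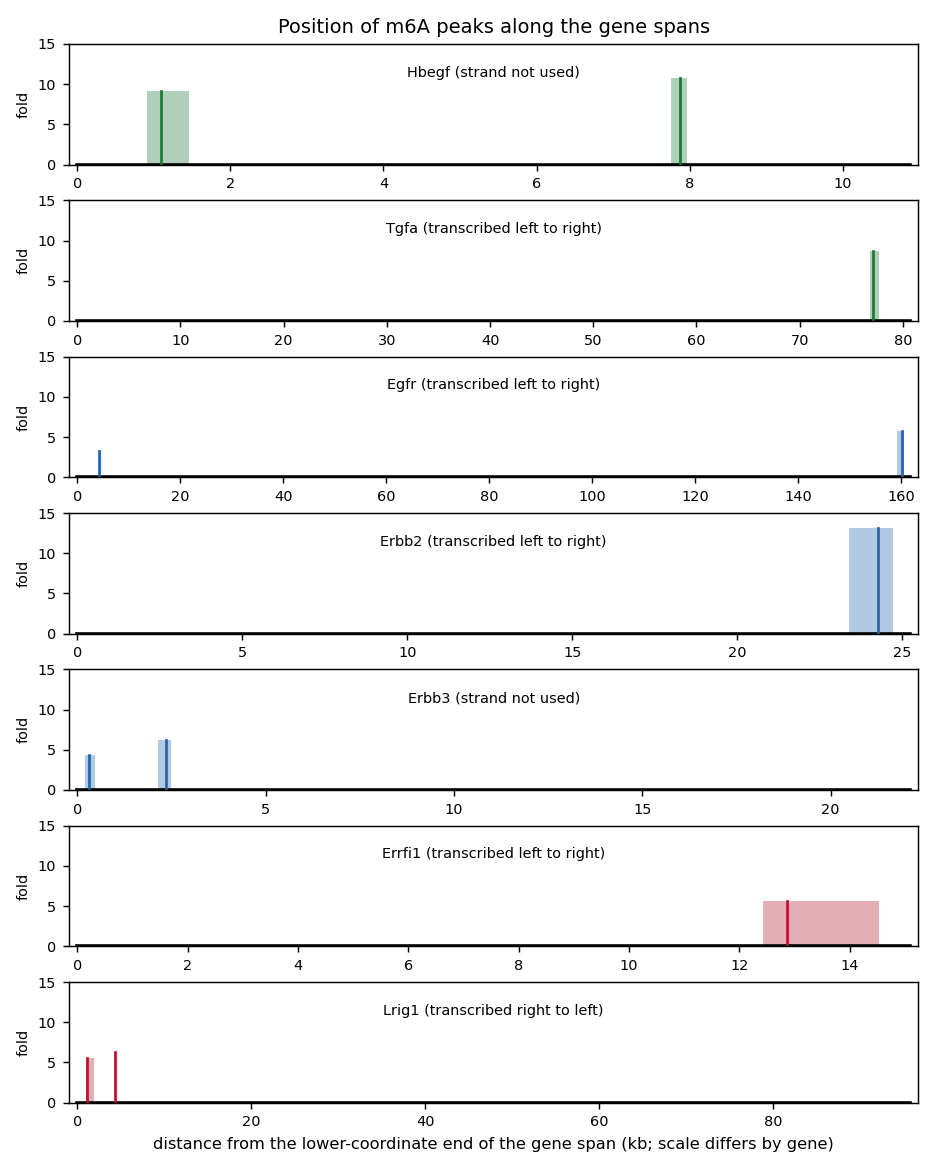
Position of the 11 peaks along the 7 gene spans. The horizontal axis of each panel is the distance in kb from the lower-coordinate end of the span, at a scale that differs by gene, shaded blocks are the peaks at true width, lines are the summits, and the vertical axis is fold enrichment. In Tgfa, Egfr, Erbb2 and Errfi1 the highest peak lies toward the right, where transcription ends, and in Lrig1, transcribed right to left, both peaks lie at the left.

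The direction of transcription was available for 7 of the 10 genes, and 5 of these carried a peak. In all 5 (Tgfa, Egfr, Erbb2, Errfi1 and Lrig1) the summit of the highest peak lay nearer the 3′ end than the start of the gene, between 971 and 4361 bases from the end. Among all protein-coding genes with a peak and a known direction, 60.8% had their highest peak nearer the 3′ end. Over all of these genes, on whichever side the peak lay, the median distance of the highest summit from the 3′ end was 4813 bases. Exons and stop codons were not used here, so these positions do not say whether a summit lay in coding or untranslated sequence. The table of promoter windows, from 250 bases before to 50 bases after each start, held 8 windows for these 7 genes. Of these, 0 were touched by any peak. The share of all promoter windows touched by a peak was not computed, so this count has no background to be read against. The upstream Egfr peak was the only peak in these 7 genes that lay nearer the start.

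The 11 peaks were compared with the whole list in depth and width. Fragments at the summit ranged from 13 to 208 with a median of 35, against 29 over all peaks. Local background ranged from 0.494 to 36.4 with a median of 5.56, against 3.33 over all peaks, and 9 of the 11 peaks lay above that list median. Widths ranged from 212 to 2114 bases with a median of 550, against 333 over all peaks, and 8 of the 11 were wider than that. Every one of the 11 summits lay in a single annotated gene. Of the 7 genes with a peak, 4 held 2 peaks and none held more, while 65.9% of all peak-carrying protein-coding genes held at least 2.

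**Figure D4:**
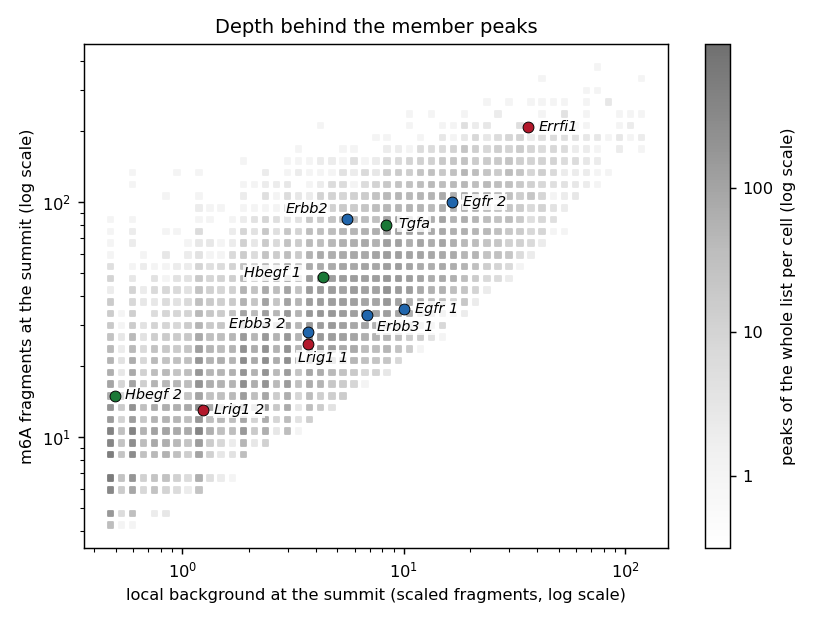
Immunoprecipitated fragments at the summit (vertical axis) against local background (horizontal axis, scaled fragments), both on log scales. Grey cells count all 38366 peaks and coloured points are the 11 peaks, numbered by coordinate where a gene has 2; Errfi1 sits at the highest background, 36.4, with 208 fragments, and Erbb2 at 5.56 with 85.

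Ordered by the highest peak per gene, the genes stood as Erbb2 (13.1-fold), Hbegf (10.7), Tgfa (8.73), Lrig1 (6.26), Erbb3 (6.16), Egfr (5.75) and Errfi1 (5.58). Of the 21 pairs, the counting intervals were apart in 5, namely Erbb2 against Lrig1, Erbb3, Egfr and Errfi1, and Tgfa against Errfi1. Neighbours in this order had overlapping intervals on this scale, although Hbegf and Tgfa were apart by the plain ratio. By the plain ratio, a comparison added after the data were examined, the order was Hbegf (30.4), Erbb2 (15.3), Lrig1 (10.5), Tgfa (9.67), Erbb3 (7.56), Egfr (6.04) and Errfi1 (5.71), with intervals apart in 10 of the 21 pairs. Erbb2 stayed apart from Erbb3, Egfr and Errfi1 on both scales, and Tgfa from Errfi1, while Erbb2 and Lrig1 were apart only by the deposited fold. The median of the 7 highest folds was 6.26. The median over all protein-coding genes with a peak was 8.04, with quartiles of 5.85 and 10.9, and 3 of the 7 genes (Erbb2, Hbegf and Tgfa) lay above that median. By the plain ratio the 2 medians were 9.67 and 12.03.

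Other genes of the pathway were taken from a list of 30, of which 26 carried a peak, 96 peaks in all, beside the same background of 55.7%. Protein-coding genes with a peak had longer spans, with a median of 25.1 kb against 9.46 kb in those without. The listed genes were not matched to that background for span, so the counts alone show no enrichment of the pathway. Taking each gene's highest peak, the median over these 26 was 8.56-fold, with a range of 3.54 to 34.9, and 6 of the 26 reached 10-fold, where 31.4% of all peak-carrying protein-coding genes did. By deposited fold the 3 highest were Lrrk1, Nrg2 and Adam10. Lrrk1, a kinase that acts in the trafficking of EGFR, reached 34.9-fold (27.6 to 43.5). The neuregulin gene Nrg2 reached 23.3-fold (16.2 to 32.4), and the intervals of Lrrk1 and Nrg2 overlapped. Adam10, a protease that sheds EGF and betacellulin, reached 19.5-fold (13.9 to 26.7). The 3 peaks stood on backgrounds of 1.24, 0.462 and 0.951, so their folds rest on little input. The pathway genes were not ordered by the plain ratio. The ubiquitin ligase gene Cblb followed at 17.0-fold (13.1 to 21.8), and its interval overlapped those of Nrg2 and Adam10. The 4 genes without a peak were the ligands Egf and Epgn, the related ligase gene Cblc and the transcription factor gene Stat5a.

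The remaining family members complete the picture of ligands and receptors and are named for that reason. Of 11 ligand genes in all, 6 carried a peak, Hbegf, Tgfa and the 4 neuregulins, a share close to the 55.7% of all protein-coding genes. Nrg1 reached 8.50-fold (5.22 to 13.2), Nrg3 7.42-fold (4.01 to 12.8) and Nrg4 5.82-fold (4.49 to 7.42). The Nrg3 and Nrg4 summits each lay in a second gene as well, Gm3386 and Fbxo22. The shared summit was the only one of Nrg4, and the list carries no strand. Where summits in more than 1 gene were left out, Nrg4 had no peak, and the 6 ligand genes with a peak were fewer by that gene. The neuregulin spans are long, with 1084 kb for Nrg1 and 1108 kb for Nrg3, and the median span was 25.1 kb in protein-coding genes with a peak against 9.46 kb in those without. Erbb4, the fourth receptor and a neuregulin receptor, held 2 peaks in a span of 1077 kb, the higher at 4.92-fold (2.59 to 8.68). That peak rested on 10 fragments and had a −log10 q of 4.76. All 4 ErbB receptor genes thus carried a peak in the list as deposited. With a minimum −log10 q of 5, Erbb4 had none.

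The groups of the list were described by their counts, to be read against the 55.7% of all protein-coding genes with a peak. Spans were not matched here either. All 4 genes of ligand shedding carried a peak. Adam17, the main sheddase of HB-EGF, transforming growth factor alpha and amphiregulin, reached 4.73-fold (3.46 to 6.31) at its highest, where Adam10 reached 19.5-fold. These summits lay at opposite ends of their genes, 1067 bases before the 3′ end in Adam17 and 128 bases from the start in Adam10. Of 9 receptor regulators 8 carried a peak, with a median highest fold of 9.99 and a range of 8.996 to 34.9. The 2 paralogs of Lrig1 were among them, Lrig2 at 9.09-fold (6.85 to 11.8) and Lrig3 at 8.996-fold (6.87 to 11.6), and both intervals overlapped that of Lrig1. Of 10 adaptors and early transducers 9 carried a peak, with a median highest fold of 7.04 and a range from 3.54 in Shc1 to 8.97 in Sos1. The Plcg1 summit also lay in Zhx3.

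**Figure D5:**
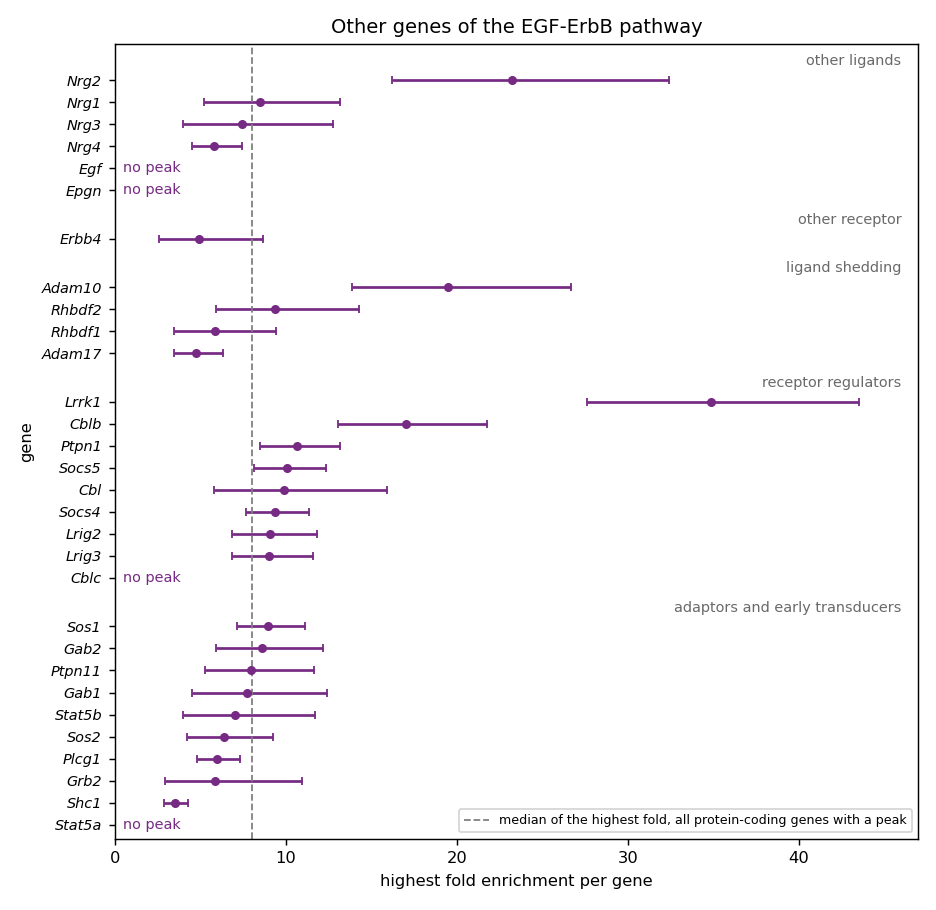
Highest fold enrichment per gene (horizontal axis, ratio) for the 30 other genes of the pathway (vertical axis), by group, with exact 95% Poisson intervals for counting error; the dashed line is the median over all protein-coding genes with a peak, 8.04. Lrrk1, Nrg2 and Adam10 stand highest, and Egf, Epgn, Cblc and Stat5a have no peak.

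Markers of uterine stroma, smooth muscle, epithelium, endothelium and immune cells carried a peak in 18 of 18 genes, against 55.7% of all protein-coding genes. Of 5 marker genes of other tissues listed as likely absent, 2 carried a peak, the liver genes Alb at 6.66-fold and Apoa1 at 9.05-fold. The other 3, from brain and heart, had none. Peaks without expression values do not show which cells held a transcript, and in whole tissue fewer cells of a type and less RNA per cell cannot be told apart.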

How the data were processed

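One deposited file was used, the peaks called in the m6A library with the input as control. HISAT2 2.2.1, MACS3 3.0.0a7 and the build mm10 are named in the submitters' processing notes; the sources used here do not give settings, duplicate handling or filters. The deposited fold enrichment is a ratio of fragments to local background at the summit, with 1 added to both terms, as the values show. The −log10 p-value and −log10 q-value, as deposited, belong to the summit, with a lowest −log10 q of 1.32. The deposited display score, 10 times the −log10 q without decimals in 99.98% of peaks, was not used further. Positions are printed counted from 1, and the list carries no strand.

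Fragments per summit (k) and background (b) were recovered by reading the fold as (k + 1)/(b + 1) and the p-value as a Poisson upper tail above k. The deposited −log10 p was met within 0.001 at 100% of peaks. The sources used here give no library totals. Intervals are exact 95% Poisson limits on k with b held fixed. They cover counting error only, since PCR duplicates of a molecule are not independent. On simulated data the recovery returned the true k at 100% of 2000 summits. The simulation was built with these same formulas, so it checked the arithmetic of the recovery and not whether the formulas hold.

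Gene spans were those of RefSeq on GRCm38.p6, which is the assembly behind mm10. Rows outside the assembled chromosomes or without a position (369) were left out, leaving 49628 genes, of which 21783 are protein-coding. The direction of transcription came from the RefSeq promoter table, which matched 7 of the 10 genes (Areg, Btc, Tgfa, Egfr, Erbb2, Errfi1 and Lrig1).

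The genes and lists were chosen with earlier results of these data known. Named were the 10 genes, and of the pathway list the 3 with the highest fold, those without a peak and genes sharing a summit; others were named after their values were seen. With 1 library per group, no test was made. Alternatives were a fold of at least 4, a minimum −log10 q of 5, overlap of 1 base or of 50% of the peak, spans widened by 1000 bases, leaving out summits in more than 1 gene and counting same intervals once. The plain ratio k/b was added after the data were examined. The software was scipy 1.17.1, pandas 2.3.3 and numpy 2.4.6 under Python 3.11.15, with figures by matplotlib 3.10.9.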

Additional observations from a re-analysis of the deposited data

How the results depend on the processing

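The number of genes with a peak was 7 under each of the 6 alternatives run on it, and the median of their highest folds was 6.26 under the same 6. With the plain ratio of fragments to background, added after the data were examined, that median was 9.67, the highest value of Hbegf moved from 10.7 to 30.4 and that of Lrig1 from 6.26 to 10.5, and the other 5 genes stayed within their intervals. The number of peaks was 11, except for 10 with a fold of at least 4, where the upstream Egfr peak is lost and Egfr keeps 1, and 12 with spans widened by 1000 bases. The added peak is one of Mien1 that lies 238 bases beyond Erbb2, which then has 2. Pathway genes with a peak numbered 26 or 25. The gene lost was Erbb4 with a minimum −log10 q of 5 and Shc1 with a fold of at least 4. It was Nrg4 where summits in more than 1 gene were left out. No paired analysis was possible because each group held 1 library. Depth limits the second Hbegf peak, both Lrig1 peaks and the second Erbb3 peak, with 28 fragments or fewer. The error of the background enters no interval.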

Other observations

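Peaks just outside the gene spans were examined within 10000 bases, after the values above were seen. Erbb2 and Mien1 overlap at their ends, and a Mien1 peak at chromosome 11, 98437951 to 98438892, had its summit 238 bases beyond Erbb2, at 2.47-fold (1.71 to 3.46) from 32 fragments over 12.4. Its interval lay wholly below that of the Erbb2 peak. A peak in no gene stood 5947 bases beyond Errfi1, at 4.55-fold (2.33 to 8.23) from 9 fragments.

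Pa2g4, which encodes the ErbB3-binding protein EBP1, is the neighbour of Erbb3 on chromosome 10 and held 3 peaks within that distance. The nearest to Erbb3, at 128565780 to 128566038, reached 13.2-fold (9.96 to 17.1) from 54 fragments over 3.17, and its interval lay wholly above those of both Erbb3 peaks. The others reached 3.87-fold and 2.70-fold. The 13.2-fold summit lay 60 bases past the annotated start of Pa2g4, on the minus strand, and 1649 bases outside Erbb3. The Pa2g4 promoter window (RefSeq, GRCm38.p6, chr10:128565885-128566184, minus strand) is shown because the peak covers its last 154 bases, which are in capitals; the last 50 are transcribed.

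Pa2g4 promoter: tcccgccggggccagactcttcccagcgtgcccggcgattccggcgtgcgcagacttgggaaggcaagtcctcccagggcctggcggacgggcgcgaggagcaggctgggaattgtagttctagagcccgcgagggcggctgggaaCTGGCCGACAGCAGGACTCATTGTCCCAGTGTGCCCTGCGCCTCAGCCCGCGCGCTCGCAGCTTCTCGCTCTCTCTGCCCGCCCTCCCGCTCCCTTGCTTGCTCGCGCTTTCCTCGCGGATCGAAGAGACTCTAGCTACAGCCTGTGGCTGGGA

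None of the promoter windows of the 7 genes of the EGF family group that the table holds was touched in this way. It holds no window for Erbb3, and the share of all windows touched by a peak was not computed.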
